A study of Mus musculus with 10 samples.

Results

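The striated muscle miRNAs were 3 of the 285 mature miRNAs measured in mouse liver: miR-1a, miR-133a and miR-206. They were picked by name, as rows called miR-1, miR-1a, miR-133a, miR-133b or miR-206 once the species prefix and any arm suffix were removed. The names were chosen with earlier results of these data known. The 10 libraries came from 5 Tsc1 mutant livers and 5 control livers, all of mice aged 14 weeks. Per the labels, the mutants carried a liver knockout of Tsc1, which encodes a subunit of the complex that restrains mTORC1, and the controls were their littermates. The labels used here state neither the promoter driving the knockout nor the strain or sex. Each library was small RNA from 50 mg of whole liver, so fewer cells of a type and less of a miRNA per cell cannot be told apart in these values.

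In mouse, miR-1a and miR-133a are made together from shared precursor transcripts in heart and skeletal muscle, whereas miR-206 is largely restricted to skeletal muscle. The muscle regulators MyoD and myogenin activate them during differentiation; miR-1 and miR-206 favour differentiation of myoblasts, and miR-133 favours their proliferation. In liver, whose bulk is hepatocytes, none of them is a characteristic miRNA.

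The sequence of miR-206 is shown because its seed is the one it shares with miR-1a, so the pair can bind the same target sites. The seed, bases 2 to 8 from the 5′ end, is in capitals. The sequence is that of RefSeq on GRCm38.p6, and it was found for 1 of the 3 members. The name in the deposited table carries no arm, and in older naming miR-206 without an arm meant the 3p strand.

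miR-206-3p: uGGAAUGUaaggaagugugugg

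In its hairpin, at chr1:20679010-20679082 on the plus strand of GRCm38.p6, the mature 3p strand is in capitals.

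Mir206 hairpin: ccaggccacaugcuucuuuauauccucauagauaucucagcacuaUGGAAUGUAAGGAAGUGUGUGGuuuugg

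Among the 1738 mature mouse entries of that RefSeq table, where miR-206 is the 1 member matched, the seed GGAAUGU occurred in 3, or 0.173%. The other entries with it were miR-6349 and miR-6382, which had no values here. The share covers only those entries, and miR-1a is not counted in it. In the GENCODE M21 annotation of GRCm38, the hairpins of Mir206 and Mir133b lie in exons of the same long noncoding RNA gene, Gm28653, with starts 3759 bases apart on chromosome 1. One hairpin of miR-1a, Mir1a-1 (180389048 to 180389124 on chromosome 2, plus strand), and one of miR-133a, Mir133a-2 (180398379 to 180398482 on the same strand), start 9331 bases apart and overlap no other annotated gene. Both miRNAs have a further hairpin elsewhere, and reads cannot be assigned to one or the other. Reads of miR-133b, which is nearly identical to miR-133a in mouse, may also have been counted as miR-133a. Other muscle miRNAs, namely miR-208a, miR-208b, miR-499 and miR-133b itself, had no row in the deposited table.

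Library depth was 6489735 to 10901280 miRNA reads in mutants and 6228497 to 12129069 in controls, and in 0 of 45 pairs of libraries did counts differ by no more than sampling noise. The hepatocyte miRNA miR-122 made up 22.8 to 32.7% of miRNA reads in mutants and 24.1 to 37.8% in controls. Small RNA libraries hold no measure of Tsc1 itself, and no check of the genotypes by it was made. Nothing in the labels says how the livers were sampled or processed together, so p-values measure the spread between these libraries. Control replicate 2 stood apart from the other libraries, with high epithelial miRNAs, miR-1a and miR-133a, and the tests between genotypes of the 3 miRNAs and their ratios are given with and without it.

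The most abundant of the 3 was miR-1a. It had 166, 133.3, 197, 359 and 897 normalised reads in Tsc1 mutant replicates 1 to 5, against 258, 5534, 295, 545 and 504 in control replicates 1 to 5. Control replicate 2 lay far above the other 9 libraries, Tsc1 mutant replicate 5 came next, and the groups overlapped. Tsc1 mutant replicates 1, 2 and 3 lay below every control. As a share of miRNA reads, miR-1a took 0.0642% in control replicate 2 (95% exact binomial interval 0.0628 to 0.0656%) and 0.00962% in Tsc1 mutant replicate 5 (0.00901 to 0.0103%). By mean it ranked 142 of 285 miRNAs in mutants.

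Expression of miR-133a, its precursor partner, was much lower. It had 4.35, 0.849, 6.31, 1.43 and 3.97 normalised reads in Tsc1 mutant replicates 1 to 5, against 5.59, 99.5, 6.90, 8.41 and 16.4 in control replicates 1 to 5. These were 1 to 6 reads per mutant library and 5 to 140 per control library. All mutants lay below the control median, and Tsc1 mutant replicate 3 alone reached above the lowest control. In Tsc1 mutant replicates 2 and 4 there was 1 read each, under the 3 reads taken as the detection floor. Control replicate 2 was again the highest library, but Tsc1 mutant replicate 5, high for miR-1a, was not high for miR-133a.

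Expression of miR-206 did not follow that of miR-1a and miR-133a in control replicate 2. It had 6.95, 17.0, 9.46, 20.1 and 17.9 normalised reads in Tsc1 mutant replicates 1 to 5, against 4.00, 4.98, 11.2, 5.05 and 20.5 in control replicates 1 to 5. These were 8 to 20 reads per mutant library and 3 to 20 per control library. Control replicate 2, the highest library for miR-1a and miR-133a, ranked 9 of 10 for miR-206. All mutants lay above the control median of 5.05, which was the value of control replicate 4, on 3 reads, the detection floor. Without control replicate 2 the control median was 8.13, and 4 of the 5 mutants lay above it. The highest single value was that of control replicate 5, so the groups overlapped.

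**Figure D1:**
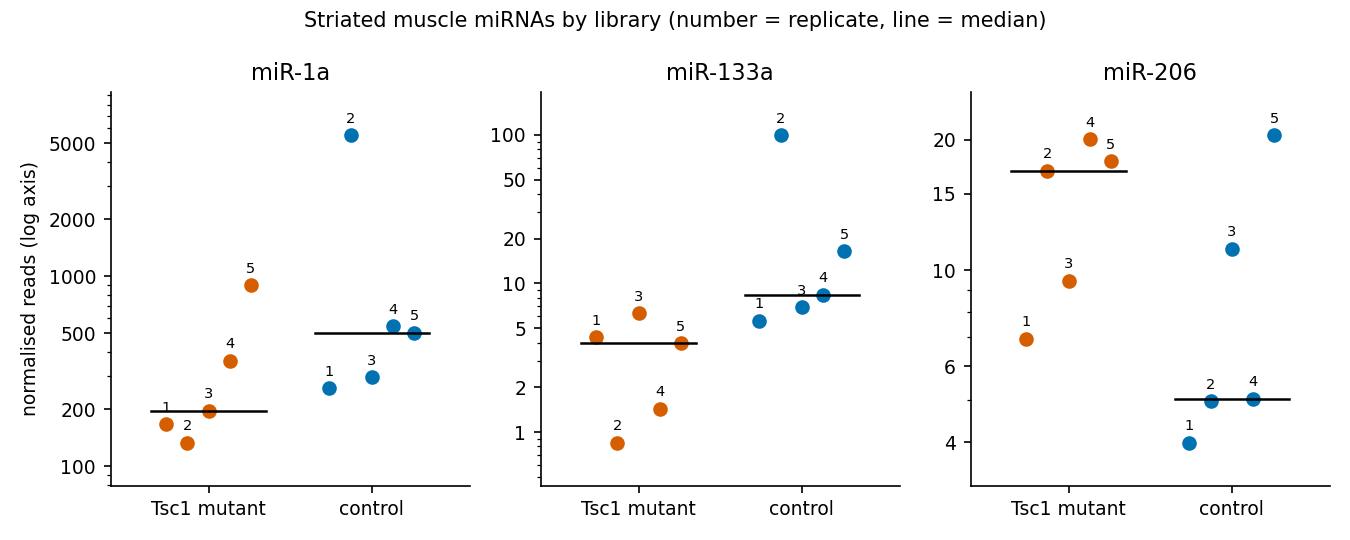
Normalised reads of miR-1a, miR-133a and miR-206 in each library on log axes, Tsc1 mutants in orange and controls in blue, with replicate numbers and the group median as a line. Control replicate 2 is at 5534 for miR-1a and 99.5 for miR-133a, above all other libraries, and at 4.98 for miR-206, near the bottom.

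None of the 3 passed the threshold between genotypes, a limma adjusted p of 0.05 over all 285 miRNAs. Of those 285, 2.11% were called lower and 10.9% higher in mutants. At an unadjusted limma p under 0.05 there was 1 of the 3 members, miR-133a, against 22.5% of all miRNAs, and voom on whole reads also called 0 of the 3. Two-sided exact permutation tests over the libraries are given beside each limma value below. With 5 against 5 libraries the smallest p they can give is 0.00794.

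On the log2(normalised reads + 1) scale, miR-133a had the largest difference of the 3. It was at -1.99 ± 0.72 (SE, mutant minus control, n = 5 each), with a 95% interval of -3.57 to -0.41. The limma p was 0.0182 unadjusted and 0.110 adjusted, and the exact permutation p was 0.0159. Without control replicate 2 the difference was -1.31 ± 0.47 (SE), with an interval of -2.35 to -0.27, a limma adjusted p of 0.119 and an exact permutation p of 0.0317. Means were 3.38 ± 2.24 normalised reads in mutants and 27.4 ± 40.6 in controls (SD, n = 5 each), and 9.33 ± 4.86 in the 4 controls without replicate 2. The call is sensitive to the weighting of libraries: with array weights miR-133a passed as lower, at -1.96 (limma adjusted p = 0.0358), in a fit that called 8.07% of miRNAs lower.

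The difference of miR-1a rested largely on control replicate 2. It was at -1.27 ± 0.81 (SE) with all 10 libraries, with an interval of -3.06 to 0.52, a limma adjusted p of 0.428 and an exact permutation p of 0.230. With that library left out it was at -0.50 ± 0.52 (SE), with an interval of -1.67 to 0.67, a limma adjusted p of 0.725 and an exact permutation p of 0.444. Means were 350.4 ± 318 normalised reads in mutants and 1427 ± 2299 in controls (SD, n = 5 each). Over the 4 controls without replicate 2 the mean was 400.5 ± 145. The medians lay further apart, at 197 in mutants and 399 in those 4 controls. The mutant mean was raised by Tsc1 mutant replicate 5, at 897. Without Tsc1 mutant replicate 5, and with control replicate 2 kept, the difference was -1.70.

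For miR-206 the difference had the other sign, at 0.73 ± 0.45 (SE), with an interval of -0.26 to 1.72, a limma adjusted p of 0.424 and an exact permutation p of 0.175. Without control replicate 2 it was at 0.60 ± 0.48 (SE), with an interval of -0.47 to 1.67, a limma adjusted p of 0.608 and an exact permutation p of 0.286. Means were 14.3 ± 5.72 normalised reads in mutants and 9.15 ± 6.97 in controls (SD, n = 5 each), and 10.2 ± 7.59 in the 4 controls without replicate 2. The difference was within the spread between libraries in both comparisons. With so few reads the intervals still include values more than 2-fold higher in mutants.

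**Figure D2:**
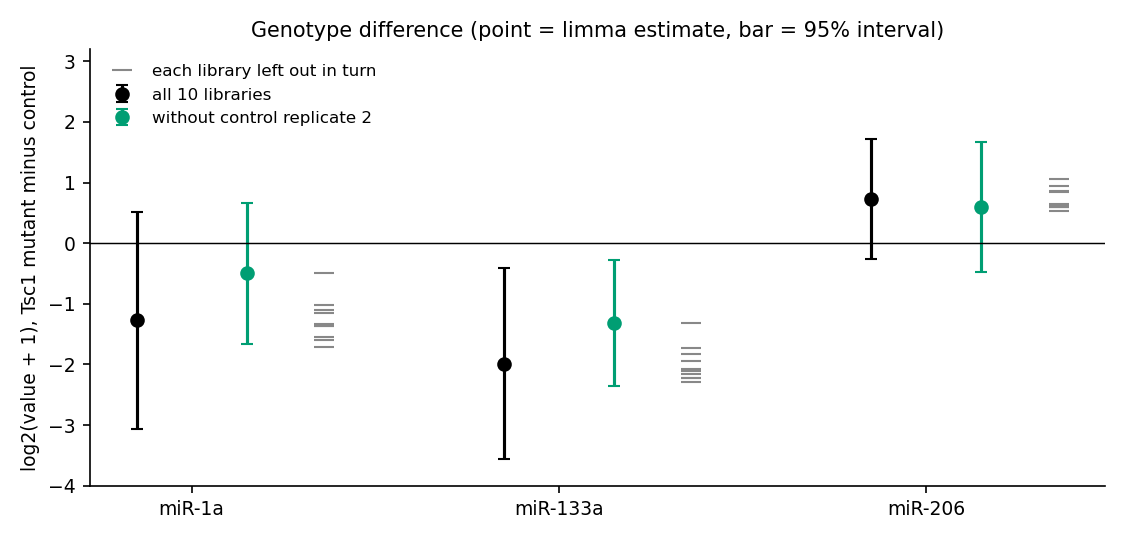
Difference between genotypes on the log2(normalised reads + 1) scale for each miRNA, mutant minus control, as limma estimates with 95% intervals for all 10 libraries (black) and without control replicate 2 (green), and as grey ticks with each library left out in turn. Removing control replicate 2 brings miR-1a to -0.50 and miR-133a to -1.31, the tick nearest 0 for both, while miR-206 stays above 0 in all of these fits.

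The median of the 3 log2 differences was -1.27 with all libraries and -0.50 without control replicate 2, beside -0.06 for all 285 miRNAs in both fits. In both, 2 of the 3 were below 0, as were 57.5% of all miRNAs with all libraries and 57.9% without control replicate 2. In 0 of the 3 did the groups separate fully, as they did for 2.46% of all miRNAs lower and 10.2% higher in mutants, or 3.51% and 11.2% without control replicate 2. Summed over the 3, the libraries held 151 to 919 normalised reads in mutants and 268 to 5638 in controls, or 268 to 559 without control replicate 2. Of that sum miR-1a made up 88.2 to 97.6% in mutants and 93.2 to 98.1% in controls.

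The number of reads of one miRNA per 100 of another in the same library does not depend on the scaling between libraries. The log2 ratios that were tested have 1 added to each normalised value and depend on it slightly. For every 100 reads of miR-1a there were 2.62, 0.637, 3.21, 0.400 and 0.442 reads of miR-133a in Tsc1 mutant replicates 1 to 5, against 2.17, 1.80, 2.34, 1.54 and 3.26 in control replicates 1 to 5. Control replicate 2 sat within the range of the other controls, so both of its high muscle miRNAs stood to each other about as they did in other controls. Tsc1 mutant replicates 2, 4 and 5 lay below every control, on 1, 1 and 4 reads of miR-133a. On the log2 scale with 1 added to each value, the ratio averaged -6.12 ± 1.25 in mutants and -5.40 ± 0.42 in controls (SD, n = 5 each). The difference of -0.72 was within the spread (2-sided exact permutation p = 0.286, also 0.286 when adjusted over 3 ratios), and without control replicate 2 it was -0.81 (exact permutation p = 0.278, also 0.278 adjusted). Its size depended on the value added and on single mutants: it was -0.09 with 5 added, -0.45 without Tsc1 mutant replicate 4, -0.37 without Tsc1 mutant replicate 5 and -1.06 without Tsc1 mutant replicate 3.

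The ratio of miR-206 to miR-1a was where control replicate 2 differed. There were 4.19, 12.7, 4.81, 5.60 and 1.99 reads of miR-206 for every 100 of miR-1a in Tsc1 mutant replicates 1 to 5, against 1.55, 0.0899, 3.80, 0.926 and 4.07 in control replicates 1 to 5. Tsc1 mutant replicates 1 to 4 lay above every control. The log2 ratio was higher in mutants by 2.00 ± 1.06 (SE), with a 2-sided exact permutation p of 0.0476 and 0.0714 when adjusted over the 3 ratios. Without control replicate 2 the difference was 1.10 ± 0.63 (SE), with an exact permutation p of 0.127 and 0.190 adjusted. Neither passed after adjustment.

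The ratio of miR-206 to miR-133a rested on the fewest reads. Its log2 value averaged 1.88 ± 1.33 in mutants and -0.84 ± 1.88 in controls (SD, n = 5 each). The difference of 2.72 ± 1.03 (SE) had an exact permutation p of 0.0238 and 0.0714 when adjusted over the 3 ratios. Over the other 9 libraries it was 1.91 ± 0.66 (SE), with an exact permutation p of 0.0556 and 0.167 adjusted. The highest log2 ratios of miR-206 to miR-133a were 3.28 and 3.11, in Tsc1 mutant replicates 2 and 4. Each had 1 read of miR-133a, under the detection floor. Without control replicate 3 both ratios with miR-206 passed, at 2.41 over miR-1a (exact permutation adjusted p = 0.0476) and 3.08 over miR-133a (exact permutation adjusted p = 0.0238). That was the only 1 of 13 alternatives in which either passed.

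**Figure D3:**
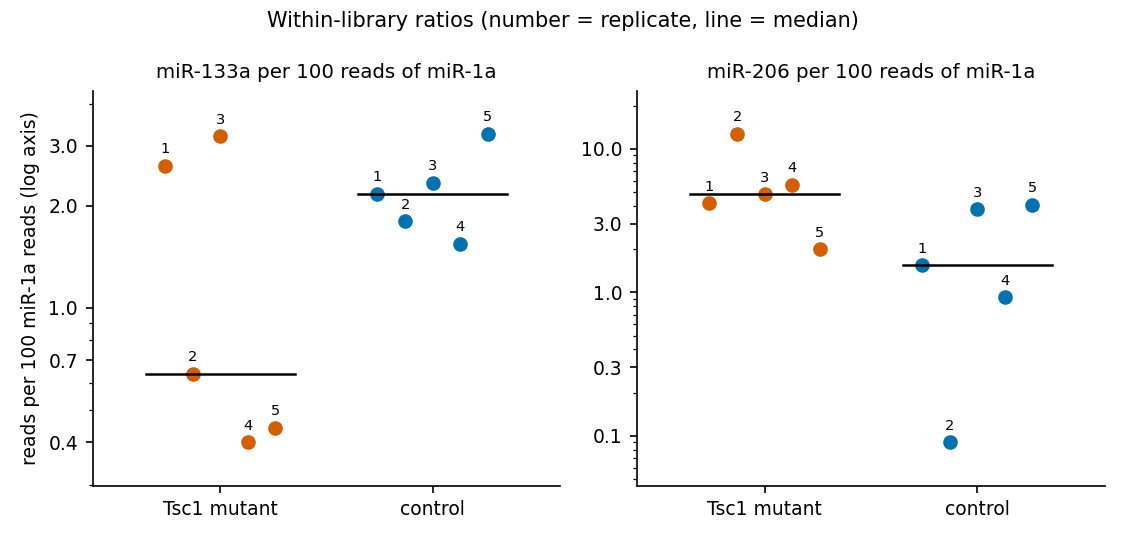
Reads of miR-133a (left) and of miR-206 (right) per 100 reads of miR-1a in the same library, on log axes, Tsc1 mutants in orange and controls in blue, with replicate numbers and the group median as a line. For miR-133a control replicate 2 lies among the other controls at 1.80, while for miR-206 it is far below them at 0.0899.

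All 3 varied more between libraries of 1 genotype than most miRNAs did. The pooled SD within genotypes was 1.49 for miR-1a, 1.28 for miR-133a and 0.76 for miR-206 on the log2 scale, ranks 6, 10 and 50 of 285, beside a median of 0.44. Without control replicate 2 these were 0.91, 0.74 and 0.78, ranks 18, 40 and 36, beside a median of 0.41. In mutants alone miR-1a had an SD of 1.10, rank 7 of 285. By mean level miR-133a and miR-206 ranked 260 and 273 of 285. These SD ranks were not matched on abundance, so counting error and variation between livers were not separated.

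Across the 10 libraries, log2 values of miR-1a and miR-133a were correlated, with Pearson r = 0.82 (permutation p = 0.0137, adjusted p = 0.0412 over 3 pairs) and Spearman rho = 0.55 (permutation p = 0.106, adjusted p = 0.319). The relation rested on control replicate 2. Without it, over 9 libraries, r was 0.41 (exact permutation p = 0.272, adjusted p = 0.565) and rho 0.38 (exact permutation p = 0.313, adjusted p = 0.655). Without the 2 libraries farthest from the median of miR-1a, control replicate 2 and Tsc1 mutant replicate 5, r was 0.61. With the genotype means removed, r was 0.78 with all libraries and 0.30 without control replicate 2.

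The other pairs showed no relation that passed. For miR-1a and miR-206, r was -0.21 and rho 0.02 (permutation p = 0.602 and 0.974, adjusted p = 0.602 and 0.974), and without control replicate 2 r was 0.22. Without the 2 farthest libraries r was 0.03. With the genotype means removed, r was -0.01 with all libraries. Without control replicate 2 as well, r was 0.38 and rho 0.50, beside 0.30 and 0.18 for miR-1a and miR-133a. For miR-133a and miR-206, r was -0.46 and rho -0.32 (permutation p = 0.183 and 0.365, adjusted p = 0.275 and 0.548), and r was -0.27 without control replicate 2. Without the libraries farthest from the median of miR-133a, control replicate 2 and Tsc1 mutant replicate 2, r was -0.13. With the genotype means removed, r of this pair was -0.22 with all libraries and 0.01 without control replicate 2.

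The miRNAs whose log2 values across the 10 libraries were most like those of miR-1a, among 244 others averaging 20 or more normalised reads, were miR-375, miR-10b, miR-200b, miR-200a and miR-200c. Their Pearson r ran from 0.89 to 0.92 and their Spearman rho from 0.67 to 0.81. Of these, miR-375 is known from pancreatic islets and secretory epithelium, the miR-200 family keeps epithelial cells epithelial by repressing Zeb1 and Zeb2, and miR-10b lies in a Hox cluster. All 5 were at their highest in control replicate 2, and these r values are a description of 10 libraries that share it. Over the other 9 libraries, miR-375, miR-10b and miR-200b were still among the 5 most like miR-1a, with r of 0.75, 0.70 and 0.63, together with miR-700 and miR-27a at 0.70 and 0.62.

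The neighbours of miR-133a changed when control replicate 2 was left out. With all 10 libraries they were miR-375, miR-92b, miR-9, miR-200c and miR-141, with r from 0.78 to 0.85. Over the other 9 libraries they were miR-383, miR-3962, miR-151-3p, miR-339-3p and miR-423-3p, with r from 0.73 to 0.83. The neighbours of miR-206 were miR-676, miR-3966, miR-1191, let-7g and let-7f, with r from 0.67 to 0.84. The first 3 of these were kept without control replicate 2, led by miR-676 with an r of 0.89 and a rho of 0.92, and were joined by miR-96 and miR-486. No neighbour of miR-206 was a neighbour of miR-1a or miR-133a.

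Control replicate 2 was set against the median of the other 4 controls, miRNA by miRNA. Of 285 miRNAs, miR-1a had rank 3 by this excess, at 3.84 on the log2 scale, and miR-133a rank 5, at 3.54, whereas miR-206 had rank 254, at -0.52. The median over all miRNAs was 0.01. The highest excess was that of miR-375, at 990 normalised reads in this library, against 32.0 to 66.7 in the other controls. Most epithelial miRNAs were high with miR-1a: 8 of 11 had an excess above 1, with a median excess of 2.69. Over all 285 miRNAs, an excess of 1.03 had rank 33. Among the 11, miR-200b had 20271 normalised reads, against 2778 to 3688 in the other controls. The most abundant of them, miR-203, was not raised, with an excess of -0.57. The summed epithelial level was 17790 to 23525 normalised reads in mutants and 20509 to 28530 in controls other than replicate 2, where it was 52940. None of the 11 was at 0 in any library.

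Markers of smooth muscle and stellate cells were less raised in that library. Of 6, only miR-143, known from smooth muscle, had an excess above 1, at 1.03, and the median was 0.20. Their sum was 136276 to 249924 normalised reads in mutants and 168823 to 240522 in controls, with control replicate 2 at 369439. The median excess was 0.05 for 4 neural and 0.30 for 3 erythroid miRNAs. It was -0.26 for 5 hepatocyte miRNAs. The part of these tissues' RNA in the miR-1a and miR-133a values was not tested.

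In Tsc1 mutant replicate 5, set against the other 4 mutants, miR-1a had rank 2 of 285, at 2.31 on the log2 scale. The epithelial markers were not raised with it to the same extent, with a median excess of 0.27 and 0 of 11 above 1. Few miRNAs of any kind exceeded 1 in this library, where rank 5 of 285 was at 0.96 and the median at -0.01. The 11 ran from -0.04 to 0.75, with miR-375 at rank 12 and miR-200b at rank 14. Both other muscle miRNAs were at 0.46, with miR-133a at rank 23, on 4 reads, and miR-206 at rank 24 of 285. The smooth muscle and stellate sum was the lowest of the 10 libraries. At rank 3 in that library was miR-10b, with 1169 normalised reads, against 343 to 532 in the other mutants, so miR-1a and miR-10b were high together in both of the libraries with the most miR-1a.

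**Figure D4:**
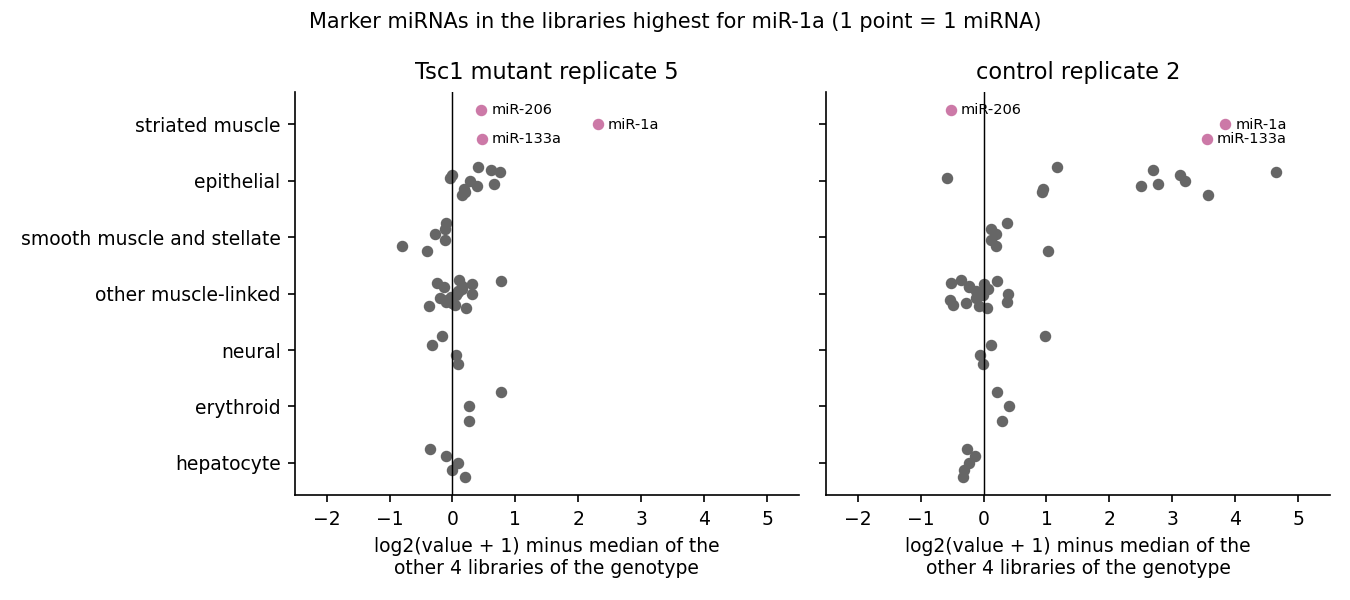
Excess of Tsc1 mutant replicate 5 (left) and control replicate 2 (right) over the median of the other 4 libraries of the same genotype, as differences of log2(normalised reads + 1), with 1 point for each miRNA of a marker list and the striated muscle miRNAs in pink. In control replicate 2, miR-1a at 3.84 and miR-133a at 3.54 lie among the epithelial miRNAs and miR-206 is at -0.52, while in Tsc1 mutant replicate 5 miR-1a alone exceeds 1.

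Beyond the 3, 19 of 21 listed miRNAs with roles in myogenesis, muscle atrophy or muscle-enriched expression had values. Of the 19, 1 rose and 0 fell, beside the 10.9% and 2.11% of all miRNAs. Their median log2 difference was -0.02, with a range of -0.55 to 0.49, and without control replicate 2 it was 0.04, with 0 called. The one that rose was miR-29a, which represses collagen genes, at 0.34 (limma adjusted p = 0.0395), and its call was lost without control replicate 2 (0.31, limma adjusted p = 0.100) and in 14 of 23 alternatives in all. The 2 most abundant were at 0.44 for miR-378, which lies in an intron of Ppargc1b (limma adjusted p = 0.165), and 0.10 for miR-26a (limma adjusted p = 0.777). In control replicate 2, 0 of the 19 had an excess above 1. Their sum there was 468015 normalised reads, beside 5638 for the 3 striated muscle miRNAs. An added amount of that size would change their sum little, and the source of their reads was not tested. Between genotypes, 0 of 11 epithelial, 0 of 6 smooth muscle and stellate and 0 of 3 erythroid miRNAs passed, while 1 of 4 neural miRNAs, miR-137, and 1 of 5 hepatocyte miRNAs, miR-802, rose. The call of miR-137 was lost without control replicate 2. The median log2 difference of the epithelial list, whose markers were high in that library, was -0.68 with it and -0.15 without it.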

How the data were processed

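Small RNA libraries from 5 Tsc1 mutant and 5 control livers were analysed. The deposited signal is a table of miRNA read counts that the authors scaled with 1 factor for each library. DESeq is the tool named in the submitters' processing notes, with no version. For aligner, miRNA annotation, build and filters, nothing is stated: not given in the sources used here. Each value was a whole multiple of 1 step per library within 0.001, and dividing by it gave reads per library. Reads without molecular identifiers are not independent molecules, so intervals and the floor of 3 reads cover only counting error.

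Genotypes were compared on log2(value + 1) with limma 3.58.1 in R 4.3.3 (empirical Bayes with an intensity trend, minimum mean of 5, met by all 285 miRNAs, Benjamini-Hochberg over all of them). This scale understates differences of miRNAs with few reads. The fit was tested on simulated data with noise independent between miRNAs, which held no library that stood apart like control replicate 2. The submitters' library codes run consecutively within each genotype, so their order and genotype cannot be told apart. Planned count models were not used. Correlations over 10 libraries used 100000 permutations, and those over 9 were exact. The text names the 3 members, the 5 miRNAs most like each with and without control replicate 2, the 3 most abundant muscle-linked miRNAs, and markers that stood out. Members and lists were chosen with earlier results of these data known; miR-10b in Tsc1 mutant replicate 5 was singled out after its values were seen. Alternatives were other pseudocounts, filters, scalings and weights, a replicate block, and libraries left out; voom was added after the data were seen. Figures were drawn with matplotlib 3.10.9.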

Additional observations from a re-analysis of the deposited data

Results flagged for a closer look

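For 14 sets of 5 values, each of 1 genotype, the distance from the extreme library to its nearest neighbour was set against the whole range. It was large in 4 sets, where about 0.7 (1 in 20) would be by chance with normally distributed values. The miRNAs and their sum entered as normalised reads and not on the log2 scale, so that rate need not hold for them. Sets that share a miRNA are not independent. The sets were chosen with control replicate 2 already known to stand apart, so this count is a description and not a test. All 4 were control replicate 2. It was the highest control for miR-1a at 5534 normalised reads, against 258 to 545 in the others, and for miR-133a at 99.5, against 5.59 to 16.4. It was also the highest for the sum of the 3 striated muscle miRNAs at 5638, against 268 to 559. It was the lowest control for the log2 ratio of miR-206 to miR-133a at -4.07, against -0.64 to 0.63. The cause of its high miR-1a and miR-133a was not tested.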

How the results depend on the processing

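The differences of miR-1a (-1.70 to -0.50 over 23 alternatives) and miR-206 (0.50 to 1.06 over 22) kept their direction and stayed short of the threshold in all of them, and miR-133a (-2.41 to -1.31 over 22) passed in 1, with array weights at -1.96. A minimum mean of 50 left miR-133a and miR-206 out. Replicate numbers are shared between genotypes only as numbers: same-numbered libraries deviated together with correlations of -0.02 to 0.81 across miRNAs, and 2 of 5 pairs correlated best with each other. With the replicate block no call of the 3 changed, at -1.27 for miR-1a, -1.99 for miR-133a and 0.73 for miR-206 (without control replicate 2 as well, -0.25, -1.04 and 0.51), while miR-378 passed, at 0.44 (limma adjusted p = 0.0365). With single libraries left out, the log2 difference ran from -1.06 to -0.37 for miR-133a over miR-1a (-0.09 with 5 added to all 10 libraries). It ran from 1.10 to 2.42 for miR-206 over miR-1a (1.77 with 5 added to all 10 libraries). For miR-206 over miR-133a it ran from 1.91 to 3.08 (1.86 with 5 added to all 10 libraries). Both ratios of miR-206 passed without control replicate 3 and in no other of the 13 alternatives. In the same fits r ran from 0.41 to 0.89 for miR-1a and miR-133a, and was short of the threshold in 4 of 10 (without control replicate 2, 4 or 5 or Tsc1 mutant replicate 2). It ran from -0.34 to 0.22 for miR-1a and miR-206, where it changed sign without control replicate 2. The log2 difference of miR-200b, at -0.68, ran from -0.85 to -0.13 with single libraries left out and was 0.0044 without both replicates 1 and control replicate 2. Over all miRNAs, 6 were called lower and 31 higher. The number lower was 3 (and the number higher 19) with a minimum mean of 50, 23 with array weights, 10 with the replicate block, 11 without both replicates 1 and 13 without control replicate 2 as well, and it ran from 2 to 10 with single libraries left out. Tests on the recovered reads by count models other than voom were not run. The cause of these changes was not tested. Depth limits miR-133a and miR-206, with 1 to 20 reads in all libraries except for miR-133a in control replicate 2, at 140.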

Other observations

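One further miRNA that differed sharply between libraries, miR-5105, was chosen after its values were seen. It had 149 normalised reads in Tsc1 mutant replicate 2 and 40.7 in Tsc1 mutant replicate 5, against 19.9 in control replicate 2, and 0 to 1 read in each of the other 7 libraries. Tsc1 mutant replicate 2, where it was highest, had the lowest miR-1a of the 10 libraries.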
